A study of Mus musculus with 43 samples.

Results

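The question addressed here was whether loss of Foxl2 changed transcript levels in the newborn mouse ovary by the same amount when Wnt4 was also lost as when Wnt4 was intact. The interaction was defined for each gene as the Foxl2 effect without Wnt4 (double null minus Wnt4-null ovaries) minus the Foxl2 effect with Wnt4 (Foxl2-null minus wild-type ovaries), on the log2 scale. It used 12 of the 43 arrays of the series, 3 in each of 4 groups collected on the day of birth (P0), with 1 Affymetrix MOE430 v.2 array per mouse and the whole gonad without adnexa as the tissue. By the labels, the double null ovaries were Wnt4-/- Foxl2-/-, the Wnt4-null ovaries were Wnt4-/- and also Foxl2+/-, the Foxl2-null ovaries were Foxl2-/-, and the P0 ovaries of the last group carried no genotype in the labels and were wild-type littermates per the methods. Because the Wnt4-null ovaries lacked 1 Foxl2 allele and the wild-type ovaries lacked none, the interaction also contains minus the effect of losing 1 allele, which cannot be told apart from it in these 4 groups. Per the methods, the mice were of mixed strain (CD1, C57BL/6J and NIH-Swiss/BC).

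Foxl2 encodes a forkhead transcription factor of the supporting (granulosa) cells of the ovary, and Wnt4 encodes a secreted ligand of the Wnt family that acts in part through beta-catenin and its TCF/LEF partners. Both are required for ovary development and both act against testis differentiation. In the testis the supporting cells are Sertoli cells, which are specified by Sox9 and its relative Sox8, and fetal Leydig cells make androgens through enzymes such as Cyp11a1 and Cyp17a1. In Wnt4-null ovaries steroid-producing cells appear and germ cells are lost. In whole gonads, fewer cells of a type and less RNA per cell cannot be told apart.

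Promoters of the named genes with a called interaction were searched for 3 short cores on both strands, and the 4 promoters that held 1 are printed here because these cores belong to Foxl2-like forkhead factors, to the TCF/LEF partners of Wnt signalling and to the NR5A receptors that drive steroid synthesis genes. The forkhead core was TGTTTAC or TATTTAC, the TCF/LEF core CTTTGAT or CTTTGAA, and the NR5A core CAAGGTCA. Each sequence is RefSeq, build GRCm38.p6, 300 bases with its start site 50 bases from the 3′ end, written 5′ to 3′ along the gene's strand with the core in capitals.
Cited1, interaction positive, NR5A core on the reverse strand 217 bases before the start, chrX:102250727-102251026, minus strand: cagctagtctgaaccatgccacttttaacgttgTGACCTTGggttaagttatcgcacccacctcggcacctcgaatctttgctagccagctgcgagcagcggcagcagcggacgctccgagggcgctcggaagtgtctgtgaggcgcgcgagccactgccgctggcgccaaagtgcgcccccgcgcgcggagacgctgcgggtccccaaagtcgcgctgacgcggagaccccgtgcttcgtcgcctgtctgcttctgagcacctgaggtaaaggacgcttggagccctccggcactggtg
D630039A03Rik, interaction negative, NR5A core on the reverse strand 175 bases before the start, chr4:57916215-57916514, minus strand: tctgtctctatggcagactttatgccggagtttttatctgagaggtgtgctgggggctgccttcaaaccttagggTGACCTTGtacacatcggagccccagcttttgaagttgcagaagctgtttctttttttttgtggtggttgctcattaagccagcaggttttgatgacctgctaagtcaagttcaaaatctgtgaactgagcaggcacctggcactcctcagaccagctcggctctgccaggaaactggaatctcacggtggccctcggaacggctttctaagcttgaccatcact
U90926, interaction negative, forkhead core on the reverse strand 40 bases before the start, chr5:92215359-92215658, minus strand: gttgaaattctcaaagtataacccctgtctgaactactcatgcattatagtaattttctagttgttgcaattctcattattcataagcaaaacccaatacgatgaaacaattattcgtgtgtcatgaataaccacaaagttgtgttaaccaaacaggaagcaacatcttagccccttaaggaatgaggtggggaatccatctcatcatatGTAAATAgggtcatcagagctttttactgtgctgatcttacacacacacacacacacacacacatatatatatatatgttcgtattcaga
Stra6, interaction negative, TCF/LEF core on the reverse strand 145 bases before the start, chr9:58129099-58129398, plus strand: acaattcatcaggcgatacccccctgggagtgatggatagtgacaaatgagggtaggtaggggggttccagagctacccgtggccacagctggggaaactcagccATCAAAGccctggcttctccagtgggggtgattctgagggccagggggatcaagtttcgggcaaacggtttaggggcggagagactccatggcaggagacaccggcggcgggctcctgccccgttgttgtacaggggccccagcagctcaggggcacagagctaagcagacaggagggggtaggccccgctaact
Of 37 named genes with a called interaction, 27 had a promoter in the RefSeq table. Counting a gene where any of its promoters held the core, the forkhead core was found in 1 of these 27 genes and in 7.35% of the 27025 genes of the table, the TCF/LEF core in 1 and in 9.88%, and the NR5A core in 2 and in 1.76%. Over all 32851 promoters the shares were 6.54%, 8.65% and 1.56% in the same order. The printed window is 1 of 4 promoters listed for Stra6 and 1 of 3 for Cited1, and their other windows held none of the cores. A match describes the letters of the window only.

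The deleted genes were checked first. Signals are intensities divided by the mean of the array, which is the same on every array, so that 1 is an average probe set. Foxl2 had signals of 0.682, 0.826 and 0.739 in double null ovaries and 5.13, 5.35 and 5.9 in Wnt4-null ovaries, against 1.36, 2.42 and 1.84 in Foxl2-null ovaries and 16.8, 14.6 and 16.4 in wild-type ovaries. All Foxl2-/- arrays lay under all others, and the Foxl2+/- Wnt4-null arrays lay between the null and the wild-type arrays. A second Foxl2 probe set was at or under 0.00232 on each double null array and at or under 0.000561 on each Foxl2-null array. Wnt4 had signals of 0.176, 0.292 and 0.375 in double null ovaries and 0.284, 0.306 and 0.2 in Wnt4-null ovaries, against 1.24, 1.78 and 1.34 in Foxl2-null ovaries and 0.726, 0.581 and 0.745 in wild-type ovaries. Every Wnt4-/- array was under every array with Wnt4, and Wnt4 rose with loss of Foxl2 where it was intact (log2 1.07 ± 0.28 (SE), adjusted p = 0.0476, limma). Whether a probe set falls inside a deleted stretch could not be checked. Replicates correlated at 0.9653 to 0.9813 over all probe sets, and array medians were 0.197 to 0.2443 of the mean.

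Foxl2 loss had a different effect without Wnt4 than with Wnt4 for 95 genes. The interaction was positive for 67 of 18184 genes (0.368%) and negative for 28 (0.154%) at an adjusted p under 0.05 (limma across all 43 arrays, two-sided, Benjamini-Hochberg over all genes). In all, 1468 genes passed an unadjusted p of 0.05. The size of the called interactions was 0.92 to 5.79 on the log2 scale, with a median of 2.05, whereas the median standard error over all genes was 0.39 and the median interaction over all genes was 0.04. After quantile normalisation of the arrays the split was 44 positive and 37 negative, with the median over all genes at -0.03.

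The effects that make up the interaction were counted in the same fit. Foxl2 loss in Wnt4-null ovaries raised 93 genes (0.511%) and lowered 108 (0.594%), and Foxl2 loss with Wnt4 intact raised 58 (0.319%) and lowered 127 (0.698%). Wnt4 loss had a far wider reach. It raised 1451 genes (7.98%) and lowered 1946 (10.7%) where Foxl2 was present, and raised 1964 (10.8%) and lowered 2250 (12.4%) in Foxl2-null ovaries. Where Foxl2 was present, this effect is the difference of Wnt4-null ovaries, also Foxl2+/-, from wild-type ovaries. It thus includes that of the missing Foxl2 allele.

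**Figure D1:**
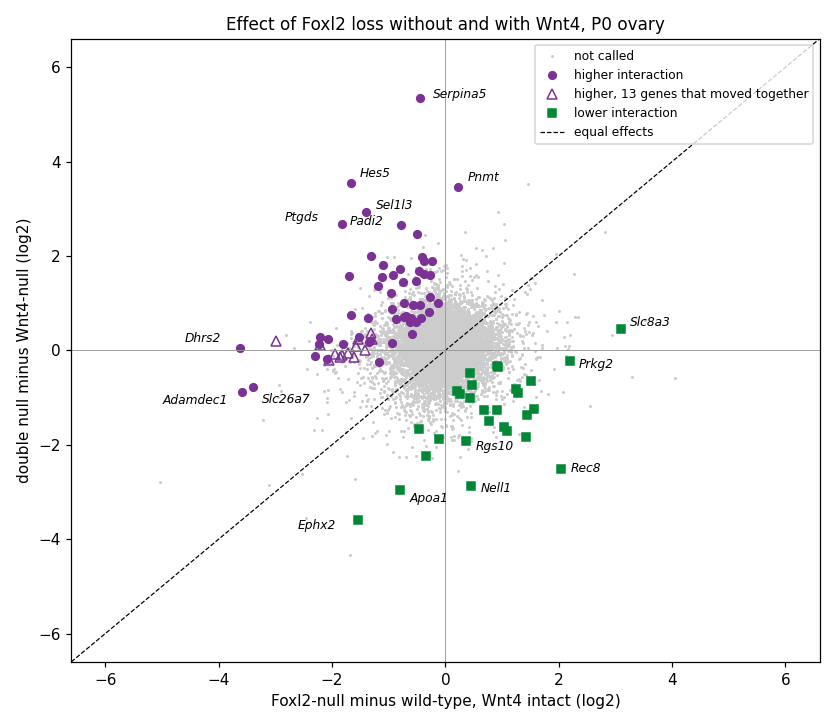
Foxl2 effect without Wnt4 (double null minus Wnt4-null, vertical axis, log2) against the Foxl2 effect with Wnt4 intact (Foxl2-null minus wild-type, horizontal axis, log2) for each of 18184 genes, with 3 arrays a group. Purple points are the 67 genes with a positive interaction (open triangles, 13 singled out as moving together). Green squares are the 28 with a negative one, and the dashed line marks equal effects. Most purple points lie left of 0 on the horizontal axis and most green squares below 0 on the vertical axis.

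Most of the 67 genes with a positive interaction had a negative Foxl2 effect where Wnt4 was intact and a positive one where Wnt4 was lost. The Foxl2 effect with Wnt4 intact was under 0 in 66 of the 67, with a median of -1.17 on the log2 scale, and the Foxl2 effect without Wnt4 was above 0 in 56, with a median of 0.69. By called effects, of the 67 genes 29 had a called fall with Foxl2 loss where Wnt4 was intact and no called effect in Wnt4-null ovaries, 25 had a called rise in Wnt4-null ovaries and none where Wnt4 was intact, 3 (Ptgds, Gsta4 and Gstm7) did both, and 10 had neither effect called. The 28 genes with a negative interaction were the mirror image in smaller number. Their median Foxl2 effect was -1.26 without Wnt4 and 0.83 with it, and 14 fell only in Wnt4-null ovaries, 5 rose only where Wnt4 was intact, 2 did both, 1 (Ephx2) fell in both and more without Wnt4, and 6 had neither effect called. These counts describe the contrast that chose the genes and are no further test of it.

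The sum of the single losses added the Foxl2-null and the Wnt4-null differences from wild-type ovaries, the latter in Foxl2+/- ovaries. Of the 67 genes, 4 (Serpina5, Pnmt, Ptch1 and Kazald1) were further up in double null ovaries than this sum. Another 21 were changed less than the sum and 42 lay on the other side of the wild-type level from the sum. Of the 28, 3 were further down than the sum, 7 were changed less than the sum and 18 lay on the other side. The array differences of the 2 Foxl2 effects, each array against each array of its control group, did not overlap for 88 of the 95 genes, a property of 4.45% of all genes. The same arrays called these genes, so that this share describes them and is no further test. All 95 kept their sign when signals were compared on the linear scale. Of 81 other probe sets for 50 of these genes, 71 had an interaction of the same sign, and of the 49 brighter than the median probe set 47 did.

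**Figure D2:**
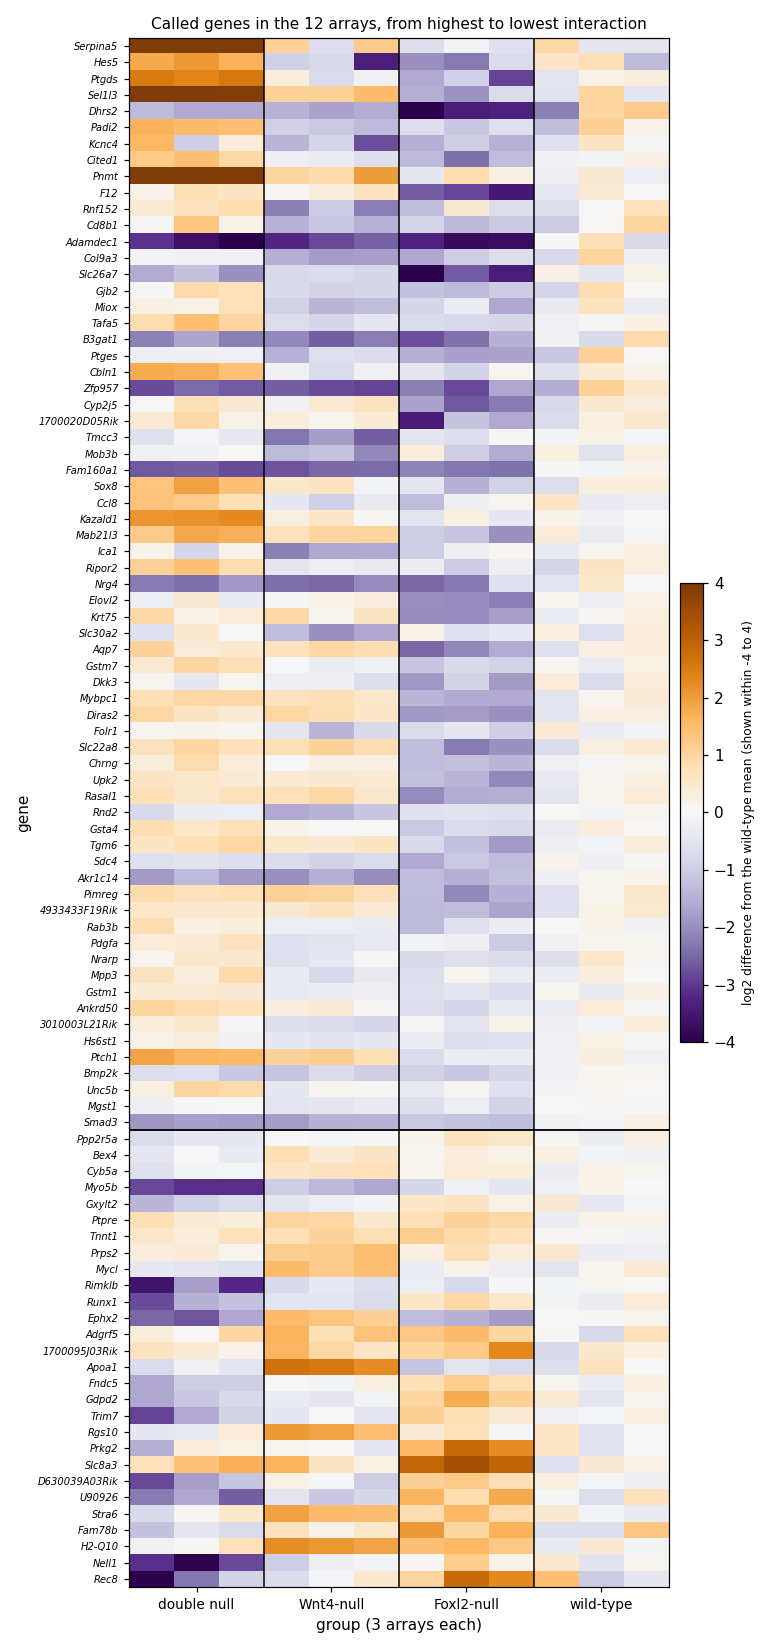
Log2 difference from the wild-type mean for the 95 genes with a called interaction (rows, from the highest to the lowest interaction) in the 12 arrays (columns, 3 each of double null, Wnt4-null, Foxl2-null and wild-type ovaries), with colours limited to -4 to 4. Above the horizontal line are the 67 genes with a positive interaction and below it the 28 with a negative one, and Serpina5, Sel1l3 and Pnmt are dark brown in the double null columns.

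Among genes of the testis pathway, Ptgds stood near the top of the positive interactions. Those of Sox8 and Col9a3 were also called but smaller. Ptgds, the prostaglandin D synthase whose product supports Sox9 in Sertoli cells, had signals of 3.54, 3.14 and 3.73 in double null ovaries and 0.764, 0.363 and 0.541 in Wnt4-null ovaries, against 0.194, 0.313 and 0.0731 in Foxl2-null ovaries and 0.429, 0.701 and 0.757 in wild-type ovaries. Foxl2 loss thus raised Ptgds without Wnt4 (log2 2.68 ± 0.46, adjusted p = 0.000798, limma) and lowered it with Wnt4 (-1.82 ± 0.46, adjusted p = 0.0386, limma). The interaction was 4.50 ± 0.65 (SE; 95% interval 3.18 to 5.82; adjusted p = 0.00019, limma), and the second probe set gave 3.01. The testes of P0, which per the methods came from Wnt4-null mice, had Ptgds signals of 5.92 to 8.89.

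Sox8, which acts beside Sox9 in Sertoli cells, had signals of 1.23, 1.83 and 1.3 in double null ovaries and 0.689, 0.751 and 0.441 in Wnt4-null ovaries, against 0.352, 0.166 and 0.246 in Foxl2-null ovaries and 0.307, 0.595 and 0.604 in wild-type ovaries. The double null arrays were the highest and did not overlap the other groups. The interaction was 2.16 ± 0.52 (adjusted p = 0.0405, limma), although neither Foxl2 effect was called on its own, and the call held under 7 of 20 alternative settings. Col9a3, a chain of collagen IX made by Sertoli cells, had 0.826, 0.82 and 0.801 in double null ovaries and 0.306, 0.25 and 0.258 in Wnt4-null ovaries, against 0.284, 0.437 and 0.555 in Foxl2-null ovaries and 0.511, 1.83 and 0.77 in wild-type ovaries. Wild-type array 2 stood above the rest, the double null arrays lay within the wild-type range, and the interaction was 2.67 ± 0.59 (adjusted p = 0.0242, limma). Without wild-type array 2 it was 2.16 ± 0.59 and no longer passed (adjusted p = 0.121, limma). The call was also lost without double null array 1, Wnt4-null array 2 or 3, or Foxl2-null array 1 (adjusted p = 0.0587 to 0.0819, limma). A second bright probe set of Col9a3 gave 2.65.

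The list of 22 testis determination and Sertoli cell genes held these 3 called members and none with a called negative interaction. Its median interaction was 1.02, beside 0.04 over all genes, and 18 members lay above 0, beside 9976 of the 18184 genes. At an unadjusted p under 0.05, 14 of the 22 passed, beside 1468 of the 18184. Foxl2 loss raised 8 of the 22 and lowered 0 in Wnt4-null ovaries (0.511% and 0.594% of all genes), and raised 2 and lowered 1 with Wnt4 intact (0.319% and 0.698% of all). Wnt4 loss raised 17 and lowered 1 in Foxl2-null ovaries (10.8% and 12.4% of all), and raised 7 and lowered 1 where Foxl2 was present (7.98% and 10.7% of all). The summed signal of the list was 69.9 to 73.3 in double null ovaries and 36.4 to 37.5 in Wnt4-null ovaries, against 14.5 to 20.7 in Foxl2-null ovaries and 16.4 to 17.5 in wild-type ovaries, and was 70.6 to 103 in the testes of P0. Double null ovaries and testes overlapped in this sum, and Foxl2-null and wild-type ovaries overlapped as well. Members such as Sox9, Dmrt1, Cyp26b1 and Dhh lead the study's lists of genes raised in these same ovaries. The values of this list therefore describe it and are no independent support.

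Sox9, Dmrt1 and Cyp26b1 rose with Foxl2 loss in Wnt4-null ovaries, and their interactions were not called. Sox9, the master gene of Sertoli cells, had 2.31, 2.6 and 2.03 in double null ovaries and 0.664, 0.505 and 0.764 in Wnt4-null ovaries, against 0.494, 1.35 and 0.645 in Foxl2-null ovaries and 0.789, 0.216 and 0.283 in wild-type ovaries. Its Foxl2 effect was 1.84 ± 0.36 without Wnt4 (adjusted p = 0.00339, limma) and 1.03 ± 0.36 with Wnt4 (adjusted p = 0.258, limma), and the interval of the interaction was -0.22 to 1.85. Other, dimmer probe sets of Sox9 gave interactions of 1.22 (unadjusted p = 0.00248, limma) and 0.84 (unadjusted p = 0.167, limma). Dmrt1, which keeps testis cells male, had 1.27, 1.73 and 1.41 in double null ovaries and 0.221, 0.133 and 0.362 in Wnt4-null ovaries, against 0.0628, 0.106 and 0.172 in Foxl2-null ovaries and 0.0596, 0.0636 and 0.0252 in wild-type ovaries. Its Foxl2 effect without Wnt4 was 2.67 ± 0.49 (adjusted p = 0.00177, limma) and its interaction 1.64 ± 0.69 (adjusted p = 0.469, limma). Cyp26b1, which degrades retinoic acid in the fetal testis, rose by 1.75 ± 0.35 without Wnt4 (adjusted p = 0.00445, limma), with an interaction of 1.71 ± 0.49 (adjusted p = 0.13, limma).

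Dhh, the hedgehog ligand of Sertoli cells, ran the other way on the log2 scale. It had 5.14, 4.65 and 4.68 in double null ovaries and 3.41, 2.69 and 2.76 in Wnt4-null ovaries, against 0.568, 0.548 and 0.364 in Foxl2-null ovaries and 0.0705, 0.0965 and 0.0982 in wild-type ovaries. Foxl2 loss raised it with Wnt4 intact (2.34 ± 0.36, adjusted p = 0.000146, limma), and the interaction was -1.63 ± 0.52 (adjusted p = 0.207, limma) on the log2 scale but 1.46 as a difference of mean signals. Amh, the Sertoli cell hormone that regresses the Müllerian duct, had an interaction of 0.58 ± 0.27 (adjusted p = 0.546, limma), and Fgf9, which maintains Sox9, had -1.20 ± 0.54 (adjusted p = 0.527, limma).

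**Figure D3:**
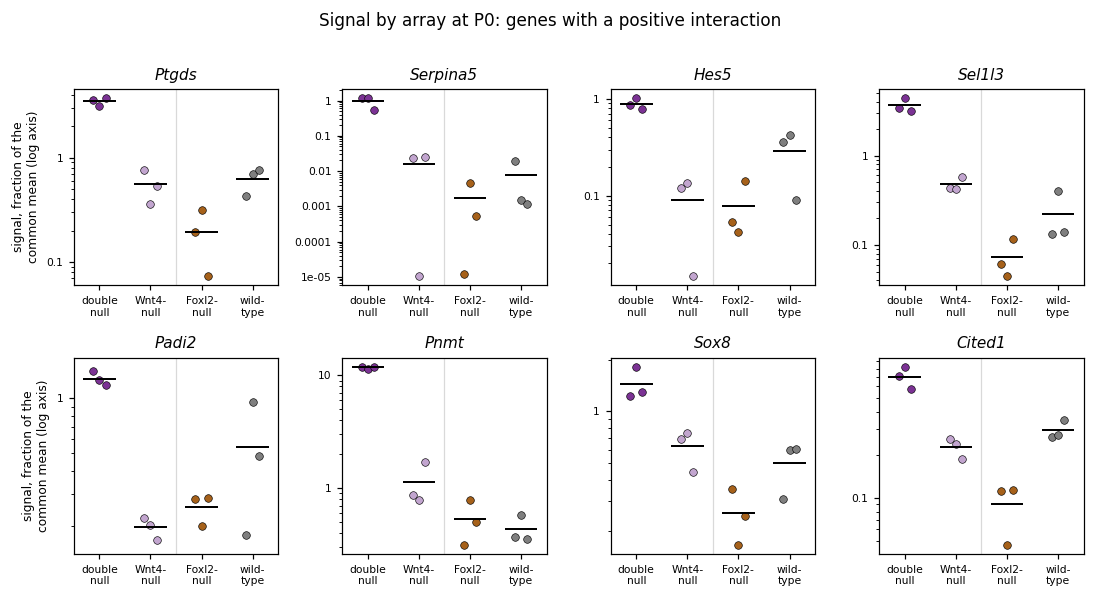
Signal on each array (points; fraction of the array mean, logarithmic axis) and group mean (line) for 8 genes with a positive interaction, in double null, Wnt4-null, Foxl2-null and wild-type P0 ovaries, 3 arrays each. For all 8 the double null arrays lie above the Wnt4-null arrays, and for Pnmt they sit at 11.4 to 12 with every other array at or under 1.72.

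Serpina5, a serine protease inhibitor of the reproductive tract, was bright in double null ovaries alone among the 4 groups. It had 1.19, 1.16 and 0.549 in double null ovaries and 0.0229, 1.04e-05 and 0.0258 in Wnt4-null ovaries, against 1.22e-05, 0.00452 and 0.000553 in Foxl2-null ovaries and 0.0199, 0.00152 and 0.00117 in wild-type ovaries. Only the double null arrays had a signal above 0.0258, and the testes of P0 had 1.64 to 2.05. With the pseudocount of 1% of the array mean, which is close to or above the signals of the other 3 groups, the interaction was 5.79 ± 0.73 (adjusted p = 3.33e-05, limma). The pseudocount sets this size, which was 4.03 ± 0.33 with one of 5% (adjusted p = 3.39e-10, limma) and 12.28 ± 3.28 with one of 16 intensity units, where the call was lost (adjusted p = 0.0928, limma).

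Pnmt, the enzyme that makes adrenaline from noradrenaline, had 12, 11.4 and 12 in double null ovaries and 0.876, 0.795 and 1.72 in Wnt4-null ovaries, against 0.314, 0.783 and 0.505 in Foxl2-null ovaries and 0.37, 0.581 and 0.356 in wild-type ovaries. The double null arrays were far above all others, and the testes of P0 had 6.51 to 7.64. Its interaction was 3.23 ± 0.63 (adjusted p = 0.00621, limma), and its other probe sets gave 4.35 and 3.81. The other markers of the adrenal medulla had smaller interactions, which for Th, Dbh and Chga were 0.01, 0.40 and -0.17. Of 9 measured adrenal genes Pnmt was the only one called, beside 0.368% of all genes called positive. Of the 9, 5 had an interaction above 0 and 4 below 0, with a median of 0.009. The summed signal of the list was 13.6 to 17.7 in double null ovaries and 4.72 to 7.6 in Wnt4-null ovaries. It was 1.18 to 1.46 in Foxl2-null ovaries and 1.24 to 1.62 in wild-type ovaries. Pnmt alone made up most of the sum in double null ovaries, so that the sum does not describe the other members.

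Sel1l3 and Padi2 had a similar pattern. Sel1l3 had 3.43, 4.43 and 3.17 in double null ovaries and 0.43, 0.418 and 0.579 in Wnt4-null ovaries, against 0.0615, 0.0443 and 0.115 in Foxl2-null ovaries and 0.132, 0.399 and 0.141 in wild-type ovaries (interaction 4.32 ± 0.69, adjusted p = 0.000569, limma). Padi2, which turns arginine into citrulline within proteins, had 1.41, 1.26 and 1.18 in double null ovaries and 0.22, 0.202 and 0.166 in Wnt4-null ovaries, against 0.279, 0.199 and 0.282 in Foxl2-null ovaries and 0.177, 0.958 and 0.481 in wild-type ovaries (interaction 3.43 ± 0.65, adjusted p = 0.00445, limma). For both genes the lowest double null array lay above every array of the other 3 groups, and the testes of P0 had 3.96 to 7.89 and 1.69 to 3.76. Cited1 is a transcriptional co-regulator, and 1 of its promoters is printed above. It had 0.707, 0.826 and 0.571 in double null ovaries and 0.257, 0.238 and 0.186 in Wnt4-null ovaries. Foxl2-null ovaries had 0.111, 0.0466 and 0.114 and wild-type ovaries 0.267, 0.275 and 0.351 (interaction 3.28 ± 0.75, adjusted p = 0.0294, limma). Neither Foxl2 effect on Cited1 was called by itself. Rnf152, a ubiquitin ligase of lysosomes, fell with Wnt4 loss where Foxl2 was present (-1.82 ± 0.37, adjusted p = 0.000381, limma) and rose with Foxl2 loss where Wnt4 was lost (2.46 ± 0.37, adjusted p = 9.1e-05, limma), with an interaction of 2.96 ± 0.52 (adjusted p = 0.00171, limma).

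Hes5, Nrarp, Ptch1 and Pdgfa also had positive interactions. No list of Notch or hedgehog genes was counted, so that these values stand for the single genes. Hes5, a repressor switched on by Notch, had 0.87, 1.03 and 0.789 in double null ovaries and 0.121, 0.134 and 0.0145 in Wnt4-null ovaries, against 0.0527, 0.0419 and 0.141 in Foxl2-null ovaries and 0.361, 0.42 and 0.089 in wild-type ovaries (interaction 5.21 ± 0.95, adjusted p = 0.00285, limma). A second, dim probe set of Hes5 gave 0.58 (unadjusted p = 0.282, limma). Nrarp, a feedback inhibitor of Notch, Ptch1, the hedgehog receptor that hedgehog signalling itself induces, and Pdgfa, a growth factor that Sertoli cells send to Leydig cell precursors, were singled out after their values were seen. Nrarp had 1.34, 1.78 and 1.74 in double null ovaries and 0.826, 0.927 and 1.2 in Wnt4-null ovaries, against 0.739, 0.826 and 0.764 in Foxl2-null ovaries and 0.801, 1.82 and 1.35 in wild-type ovaries (interaction 1.41 ± 0.29, adjusted p = 0.0125, limma). Ptch1 had 17.9, 15 and 14.1 in double null ovaries and 10, 10.7 and 8.39 in Wnt4-null ovaries, against 2.89, 4.05 and 4.03 in Foxl2-null ovaries and 4.42, 6 and 4.34 in wild-type ovaries (interaction 1.12 ± 0.24, adjusted p = 0.0163, limma). Ptch1 was higher in Wnt4-null ovaries, which were also Foxl2+/-, than in wild-type ovaries (0.99 ± 0.17, adjusted p = 5.22e-05, limma). It rose again with full Foxl2 loss on top of that (0.69 ± 0.17, adjusted p = 0.0316, limma). Pdgfa rose with Foxl2 loss in Wnt4-null ovaries (0.97 ± 0.18, adjusted p = 0.00177, limma), with an interaction of 1.42 ± 0.25 (adjusted p = 0.00186, limma).

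Glutathione transferases, which conjugate glutathione to reactive compounds, were singled out after their values were seen. By symbol 23 were measured, of which 4 (Gsta4, Gstm7, Gstm1 and Mgst1) had a called positive interaction and 0 a called negative one, beside 0.368% and 0.154% of all genes. An interaction above 0 was found in 17 of the 23, with a median of 0.32, beside 9976 of the 18184 genes. Gsta4 had 10.6, 8.89 and 10.1 in double null ovaries and 6.82, 6 and 5.91 in Wnt4-null ovaries, against 2.82, 3.7 and 3.43 in Foxl2-null ovaries and 4.91, 7.39 and 6.05 in wild-type ovaries. Foxl2 loss raised Gsta4 without Wnt4 (0.66 ± 0.16, adjusted p = 0.0269, limma) and lowered it with Wnt4 (-0.87 ± 0.16, adjusted p = 0.00134, limma), which gave an interaction of 1.53 ± 0.23 (adjusted p = 0.000208, limma). Gstm7 behaved alike, with 1.35, 2.02 and 1.73 in double null ovaries and 1.01, 0.839 and 0.895 in Wnt4-null ovaries, against 0.453, 0.589 and 0.533 in Foxl2-null ovaries and 1.09, 0.82 and 1.17 in wild-type ovaries (interaction 1.82 ± 0.24, adjusted p = 3.53e-05, limma). Foxl2-null arrays were the lowest and did not overlap the other groups for either gene. Gstm1, at 14.3 to 15 in double null ovaries and 8.7 to 9.45 in Wnt4-null ovaries, against 6.7 to 7.7 in Foxl2-null ovaries and 8.7 to 12.9 in wild-type ovaries, had an interaction of 1.29 ± 0.26 (adjusted p = 0.00968, limma), and Mgst1 one of 0.94 ± 0.23 (adjusted p = 0.045, limma). Gstm1 and Gstm7 are close copies, so that probes may not separate them. A second, dimmer probe set of Gstm7 gave an interaction of 0.49 (unadjusted p = 0.208, limma). Ptges, a prostaglandin E synthase of the same superfamily as Mgst1, fell with Foxl2 loss where Wnt4 was intact (-1.66 ± 0.34, adjusted p = 0.00526, limma), with an interaction of 2.40 ± 0.48 (adjusted p = 0.00844, limma).

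A further group fell with Foxl2 loss where Wnt4 was intact and was already low in Wnt4-null ovaries. Smad3, which carries activin and TGF-beta signals to the nucleus, had 2.45, 2.7 and 2.62 in double null ovaries and 2.61, 3.24 and 3.35 in Wnt4-null ovaries, against 4.29, 4.07 and 3.74 in Foxl2-null ovaries and 8.33, 8.45 and 10.7 in wild-type ovaries. Against wild-type ovaries, its log2 effect was -1.17 ± 0.12 in Foxl2-null ovaries (adjusted p = 2.86e-07, limma). In Wnt4-null ovaries, which were also Foxl2+/-, it was -1.57 ± 0.12 (adjusted p = 3.42e-11, limma). Foxl2 loss in Wnt4-null ovaries had an effect of -0.24 ± 0.12 (adjusted p = 0.496, limma). The interaction was 0.94 ± 0.17 (adjusted p = 0.00312, limma), and its other probe sets gave 1.09 and 1.38. Akr1c14, a hydroxysteroid dehydrogenase, had 0.945, 1.36 and 0.952 in double null ovaries and 0.858, 1.2 and 0.826 in Wnt4-null ovaries, against 1.39, 1.19 and 1.45 in Foxl2-null ovaries and 2.92, 3.61 and 3.74 in wild-type ovaries (interaction 1.52 ± 0.32, adjusted p = 0.014, limma). Wild-type arrays were the highest and the other 3 groups overlapped. Adamdec1, a secreted metalloprotease, had 0.265, 0.176 and 0.0859 in double null ovaries and 0.235, 0.313 and 0.375 in Wnt4-null ovaries, against 0.223, 0.158 and 0.168 in Foxl2-null ovaries and 2.24, 3.99 and 1.35 in wild-type ovaries (interaction 2.72 ± 0.56, adjusted p = 0.0114, limma).

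Dhrs2, a short-chain dehydrogenase, had 0.326, 0.269 and 0.267 in double null ovaries and 0.298, 0.25 and 0.278 in Wnt4-null ovaries, against 0.0362, 0.0697 and 0.0753 in Foxl2-null ovaries and 0.173, 1.67 and 1.92 in wild-type ovaries. Its interaction was 3.69 ± 0.67 (adjusted p = 0.00285, limma), and wild-type array 1 was far below the other wild-type arrays and under every Wnt4-/- array. Slc26a7, an anion exchanger, had 0.362, 0.474 and 0.275 in double null ovaries and 0.626, 0.651 and 0.614 in Wnt4-null ovaries, against 0.0516, 0.166 and 0.0955 in Foxl2-null ovaries and 1.3, 0.801 and 1.26 in wild-type ovaries. Foxl2-null arrays were the lowest and wild-type arrays the highest, with both Wnt4-/- groups between them, and the interaction was 2.62 ± 0.54 (adjusted p = 0.0107, limma). Dkk3, a secreted relative of the Dickkopf inhibitors of Wnt signalling, fell with Foxl2 loss where Wnt4 was intact (-1.53 ± 0.31, adjusted p = 0.00447, limma), with an interaction of 1.82 ± 0.44 (adjusted p = 0.041, limma), and was the only called gene among 20 measured Wnt signalling genes, whose median interaction was -0.26.

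**Figure D4:**
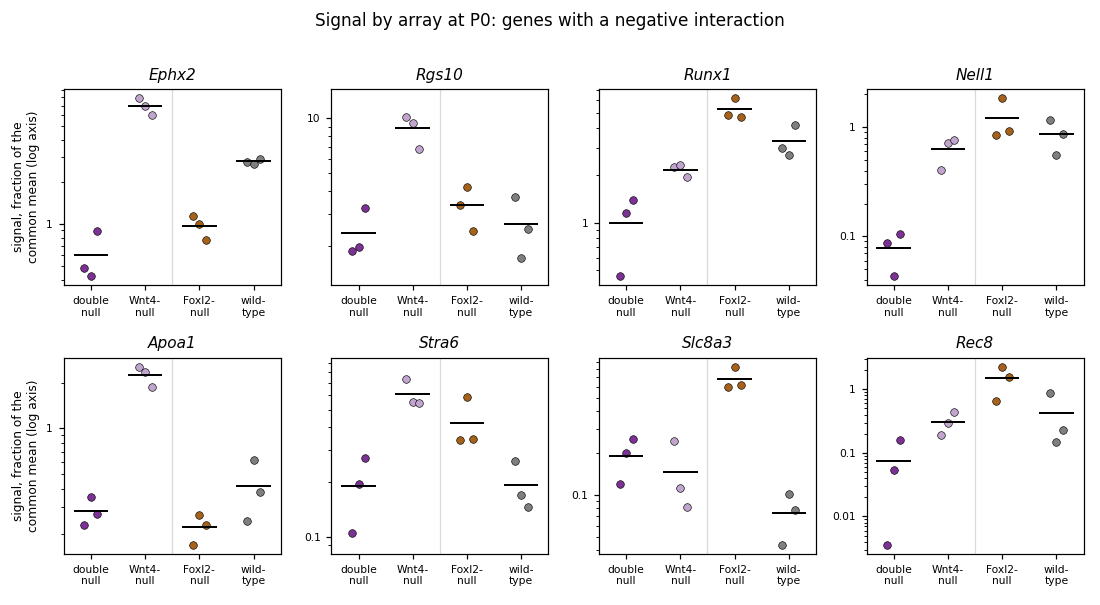
Signal on each array (points; fraction of the array mean, logarithmic axis) and group mean (line) for 8 genes with a negative interaction, in double null, Wnt4-null, Foxl2-null and wild-type P0 ovaries, 3 arrays each. Ephx2, Rgs10 and Apoa1 are highest in Wnt4-null ovaries, and Slc8a3 is highest in Foxl2-null ovaries at 0.597 to 0.839.

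Among the genes with a negative interaction, Ephx2, Apoa1, Rgs10, Stra6 and H2-Q10 rose with Wnt4 loss where Foxl2 was present, and of these none rose with Wnt4 loss in Foxl2-null ovaries. Ephx2, the soluble epoxide hydrolase, had 0.483, 0.423 and 0.889 in double null ovaries and 7.95, 7.01 and 6.03 in Wnt4-null ovaries, against 1.14, 0.995 and 0.776 in Foxl2-null ovaries and 2.77, 2.7 and 2.93 in wild-type ovaries. Foxl2 loss lowered it in both settings, with a log2 effect of -3.59 ± 0.25 without Wnt4 (adjusted p = 4.7e-12, limma) and -1.54 ± 0.25 with Wnt4 (adjusted p = 0.000327, limma), and the interaction was -2.06 ± 0.36 (adjusted p = 0.00171, limma). The study's own lists of leading genes in ovaries without Foxl2 or Wnt4, drawn from these samples, hold Ephx2, Apoa1, Akr1c14, Slc26a7, Slc8a3, Pnmt, Smad3, Gstm1, Gstm7, Stra6, Upk2, Kitl, Sox9, Dmrt1, Cyp26b1, Dhh, Nr0b1 and Inhbb among the genes named here. The study's list of candidates that act apart from Foxl2 and Wnt4 holds Runx1, Rspo1 and Fst. The Foxl2 and Wnt4 effects given for all these genes are therefore not independent evidence, and other named genes may stand in the study's longer lists. Apoa1, the main protein of high-density lipoprotein, was singled out after its values were seen. It had 0.228, 0.352 and 0.272 in double null ovaries and 2.56, 2.35 and 1.87 in Wnt4-null ovaries, against 0.169, 0.266 and 0.229 in Foxl2-null ovaries and 0.245, 0.616 and 0.378 in wild-type ovaries. Only the Wnt4-null arrays exceeded 0.616, and the interaction was -2.16 ± 0.37 (adjusted p = 0.00129, limma), with its other probe sets at -3.02 to -2.16.

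Rgs10, a regulator of G-protein signals, had 1.87, 1.96 and 3.22 in double null ovaries and 10.2, 9.39 and 6.82 in Wnt4-null ovaries, against 3.35, 4.21 and 2.42 in Foxl2-null ovaries and 3.72, 1.72 and 2.47 in wild-type ovaries (interaction -2.30 ± 0.39, adjusted p = 0.00121, limma). The Wnt4-null arrays stood above all others and the remaining groups overlapped. Stra6, the receptor that takes up retinol, had 0.105, 0.194 and 0.27 in double null ovaries and 0.739, 0.548 and 0.541 in Wnt4-null ovaries, against 0.34, 0.583 and 0.344 in Foxl2-null ovaries and 0.261, 0.17 and 0.146 in wild-type ovaries (interaction -2.80 ± 0.48, adjusted p = 0.00129, limma). H2-Q10, a secreted class I histocompatibility protein with near-identical relatives that its probes may not separate, had 0.0624, 0.0729 and 0.124 in double null ovaries and 0.36, 0.325 and 0.285 in Wnt4-null ovaries, against 0.206, 0.23 and 0.182 in Foxl2-null ovaries and 0.0536, 0.0993 and 0.0633 in wild-type ovaries (interaction -3.26 ± 0.47, adjusted p = 0.00019, limma). For Stra6 and H2-Q10, double null and wild-type arrays overlapped, and the Foxl2-null and Wnt4-null arrays lay above them.

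Other genes with a negative interaction had their highest group mean in Foxl2-null ovaries and their lowest in double null ovaries. Runx1, a transcription factor of ovarian supporting cells, had 0.456, 1.15 and 1.4 in double null ovaries and 2.26, 2.32 and 1.94 in Wnt4-null ovaries, against 4.87, 6.22 and 4.73 in Foxl2-null ovaries and 3, 2.7 and 4.2 in wild-type ovaries. The 4 groups did not overlap, and Foxl2 loss lowered Runx1 without Wnt4 (-1.26 ± 0.26, adjusted p = 0.0074, limma), while the effect with Wnt4 was not called (0.69 ± 0.26, adjusted p = 0.341, limma), for an interaction of -1.94 ± 0.37 (adjusted p = 0.00455, limma). All 5 of its other probe sets had negative interactions, the smallest of them -0.21. The study ranked Runx1 among candidates that act apart from Foxl2 and Wnt4, from the single knockout ovaries and not the double null. Nell1, a secreted protein, had 0.0864, 0.0431 and 0.106 in double null ovaries and 0.408, 0.714 and 0.757 in Wnt4-null ovaries, against 0.839, 1.85 and 0.92 in Foxl2-null ovaries and 1.15, 0.558 and 0.858 in wild-type ovaries (interaction -3.32 ± 0.51, adjusted p = 0.000289, limma). Only the double null arrays lay under 0.408. D630039A03Rik, whose promoter is printed above, had 0.0672, 0.149 and 0.236 in double null ovaries and 0.613, 0.521 and 0.26 in Wnt4-null ovaries, against 1.16, 1.28 and 0.908 in Foxl2-null ovaries and 0.645, 0.511 and 0.466 in wild-type ovaries (interaction -2.66 ± 0.50, adjusted p = 0.00414, limma). U90926, which has a forkhead core in its printed promoter, had 0.0279, 0.0485 and 0.0199 in double null ovaries and 0.121, 0.0748 and 0.0925 in Wnt4-null ovaries, against 0.552, 0.321 and 0.619 in Foxl2-null ovaries and 0.164, 0.105 and 0.288 in wild-type ovaries (interaction -2.80 ± 0.63, adjusted p = 0.0274, limma).

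Slc8a3, a sodium-calcium exchanger, was high in Foxl2-null ovaries alone. It had 0.12, 0.199 and 0.254 in double null ovaries and 0.243, 0.112 and 0.0818 in Wnt4-null ovaries, against 0.597, 0.839 and 0.619 in Foxl2-null ovaries and 0.0434, 0.101 and 0.0779 in wild-type ovaries (interaction -2.64 ± 0.60, adjusted p = 0.0274, limma). Prkg2, a cyclic GMP-dependent kinase, likewise rose with Foxl2 loss where Wnt4 was intact (2.20 ± 0.39, adjusted p = 0.000955, limma) and had an effect of -0.23 ± 0.39 without Wnt4 (adjusted p = 0.889, limma), with an interaction of -2.43 ± 0.56 (adjusted p = 0.03, limma). Fam78b had an interaction of -2.81 ± 0.69 (adjusted p = 0.0492, limma), with double null arrays at 0.0445 to 0.0804 and Wnt4-null arrays at 0.129 to 0.191, against Foxl2-null arrays at 0.238 to 0.495 and wild-type arrays at 0.0691 to 0.298. Its wild-type arrays overlapped the other 3 groups.

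Rec8, a cohesin subunit of meiotic chromosomes, was the only called gene of germ cells among the lists. It had 0.00354, 0.054 and 0.162 in double null ovaries and 0.188, 0.298 and 0.437 in Wnt4-null ovaries, against 0.645, 2.28 and 1.55 in Foxl2-null ovaries and 0.87, 0.146 and 0.232 in wild-type ovaries (interaction -4.55 ± 0.98, adjusted p = 0.0163, limma). Wild-type array 1 overlapped the Foxl2-null arrays, the other wild-type arrays overlapped the Wnt4-null or double null range, and the array differences overlapped between the settings. The call held for 7 of the 12 arrays left out. It was lost without double null array 1, where the interaction was -3.57 ± 0.93 (adjusted p = 0.0928, limma), without Wnt4-null array 3 (adjusted p = 0.0642, limma), Foxl2-null array 2 (adjusted p = 0.0644, limma), wild-type array 2 (adjusted p = 0.0771, limma) or wild-type array 3 (adjusted p = 0.0542, limma), and with the 12 arrays fitted alone (adjusted p = 0.0988, limma). Of 17 meiosis genes 2 had an interaction above 0, beside 9976 of the 18184 genes, with a median of -0.59 over the list. None of the 19 oocyte genes was called in limma, with a median of 0.13. At an unadjusted p under 0.05, 2 of the 19 passed, beside 1468 of the 18184. None of 5 male germ cell genes was called, 2 of them lay above 0, and their median was -0.98. The summed signal of the oocyte list was 7.18 to 22.4 in double null ovaries and 13.3 to 29.9 in Wnt4-null ovaries. It was 60.9 to 80.2 in Foxl2-null ovaries and 68.9 to 149 in wild-type ovaries. Wnt4 loss lowered 18 of the 19 oocyte genes where Foxl2 was present, beside 10.7% of all genes. The summed signal of the meiosis list was 7.47 to 12.6 in double null ovaries and 10.4 to 15 in Wnt4-null ovaries, against 33.6 to 43.2 in Foxl2-null ovaries and 32.8 to 40 in wild-type ovaries. The part of the germ cell lists in the interaction of other genes was not tested.

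**Figure D5:**
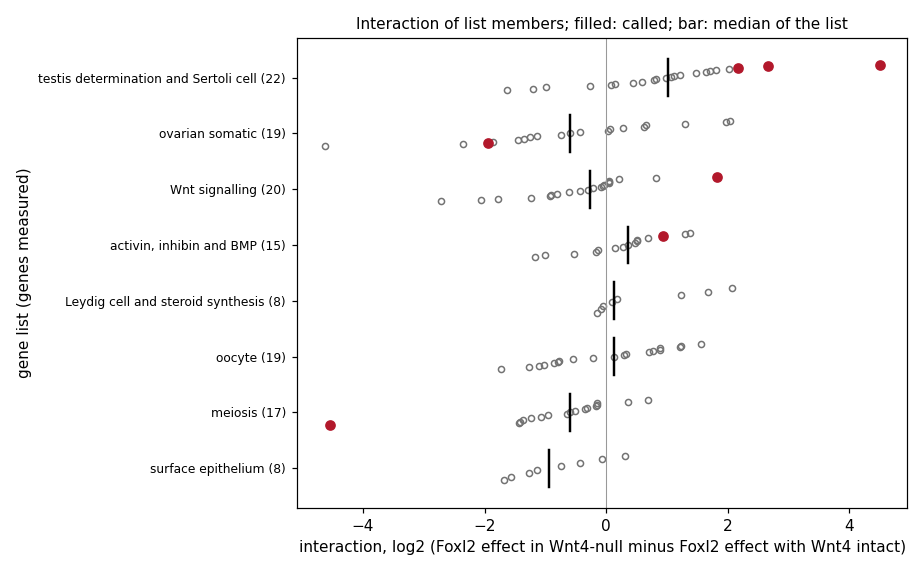
Interaction (log2, horizontal axis) of each measured gene of 8 lists (rows, with the number of genes), with filled red points for called genes, open points for the rest and a bar at the median of the list. The testis determination and Sertoli cell list has its median at 1.02 and the ovarian somatic list at -0.60, beside 0.04 over all genes.

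The somatic list of the ovary and the Wnt and activin lists had 1 called member each, beside 0.368% of all genes called positive and 0.154% called negative. At an unadjusted p under 0.05, 12 of 19 ovarian somatic genes, 8 of 20 Wnt signalling genes and 4 of 15 activin, inhibin and BMP genes passed, beside 1468 of the 18184. Among the ovarian somatic genes Runx1 was the called one, with a negative interaction, and the median was -0.60. Runx1, Rspo1, Fst and other members also stand in a list that the study drew from this series. It ranked genes for a level kept or raised in Foxl2-null and Wnt4-null ovaries and low in testes. The median and count of the ovarian somatic genes are therefore no independent evidence. Rspo1, which potentiates Wnt signals, had 1.39, 2.08 and 2.78 in double null ovaries and 2.83, 3.3 and 3.7 in Wnt4-null ovaries, against 7.14, 8.45 and 6.82 in Foxl2-null ovaries and 5.89, 5.63 and 5.05 in wild-type ovaries (interaction -1.13 ± 0.33, adjusted p = 0.128, limma). Fst, which binds activin, fell with Foxl2 loss in Wnt4-null ovaries (-2.04 ± 0.33, adjusted p = 0.000273, limma), while its interaction was -1.45 ± 0.46 (adjusted p = 0.214, limma). Nr5a2, a nuclear receptor of granulosa cells, fell with Foxl2 loss where Wnt4 was intact (-2.96 ± 0.43, adjusted p = 4.98e-05, limma), with an interaction of 1.97 ± 0.61 (adjusted p = 0.187, limma), and Nr0b1, a repressor of steroid synthesis genes, rose there (1.94 ± 0.32, adjusted p = 0.000291, limma), with an interaction of -1.35 ± 0.45 (adjusted p = 0.256, limma). Kitl, the ligand of Kit, had an interaction of 0.62 with an interval of -0.10 to 1.34.

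Axin2, a feedback target of beta-catenin, had 0.883, 1.7 and 1.42 in double null ovaries and 1.07, 1.54 and 1.72 in Wnt4-null ovaries, against 4.11, 5.92 and 5.03 in Foxl2-null ovaries and 3.51, 3.79 and 4.95 in wild-type ovaries. It split by Wnt4 status with no overlap, and its interaction was -0.44 ± 0.28 (adjusted p = 0.784, limma). In the list of 15 activin, inhibin and BMP genes Smad3 was the only one called, and the median was 0.36. Inhba, an activin subunit, had 16.4, 12.3 and 13.1 in double null ovaries and 9.7, 10.1 and 8.76 in Wnt4-null ovaries, against 0.221, 0.562 and 0.406 in Foxl2-null ovaries and 0.523, 0.414 and 0.217 in wild-type ovaries. The interval of its interaction was -0.88 to 1.89. Inhbb, another activin subunit, had an interaction of -1.17 ± 0.30 (adjusted p = 0.067, limma) and for Inha, the inhibin alpha subunit, the interval of the interaction was 0.34 to 2.26 (adjusted p = 0.326, limma).

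No gene of the 8 measured Leydig cell and steroid synthesis genes had a called interaction at an adjusted p under 0.05 in limma. At an unadjusted p under 0.05, 2 of the 8 passed, beside 1468 of the 18184 genes. The median of the list was 0.13, beside 0.04 over all genes. Cyp17a1, the enzyme that leads to androgens, had 3.37, 3 and 2.26 in double null ovaries and 4.25, 1.57 and 1.57 in Wnt4-null ovaries, against 0.00188, 0.0363 and 0.025 in Foxl2-null ovaries and 0.165, 0.00294 and 0.0407 in wild-type ovaries. Cyp11a1, the first enzyme of steroid synthesis, had 4.05, 2.35 and 3.2 in double null ovaries and 3.86, 1.62 and 2.11 in Wnt4-null ovaries, against 0.0544, 0.00146 and 0.0177 in Foxl2-null ovaries and 0.0964, 0.0508 and 0.0922 in wild-type ovaries. Both split by Wnt4 status, with overlap between groups of the same status, and the interval of the interaction was -0.77 to 3.23 for Cyp17a1 and 0.22 to 3.93 for Cyp11a1 (unadjusted). Robo1, a guidance receptor in which both Wnt4-/- groups were also higher, had an interaction of 0.95 ± 0.26 (adjusted p = 0.111, limma). Among 23 measured candidates that the study had picked on these samples, 2 had a called positive and 2 a called negative interaction. Their median was 0.18, and of all genes 0.368% and 0.154% were called so. Foxl2 loss lowered 10 of the 23 and raised 0 in Wnt4-null ovaries (0.594% and 0.511% of all genes). With Wnt4 intact it lowered 13 and raised 3 (0.698% and 0.319% of all genes).

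The lists for other cells a whole gonad can hold had no called interaction in limma. In each, 0 or 1 gene passed an unadjusted p of 0.05, beside 1468 of the 18184 genes. These lists cover stroma, smooth muscle, endothelium, macrophages, red blood cells, surface epithelium, mesonephric duct and striated muscle. The largest median of these was that of 8 surface epithelium genes, -0.93, and their summed signal was 2.88 to 12.1 in double null ovaries and 10.2 to 13.2 in Wnt4-null ovaries, against 15.8 to 17.4 in Foxl2-null ovaries and 16.4 to 21.9 in wild-type ovaries. The part of surface epithelium in the negative interactions was not tested.

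Of the 67 genes with a positive interaction, 13 were singled out after their values were seen, as moving together over the whole series: F12, Cyp2j5, Krt75, Aqp7, Mybpc1, Diras2, Slc22a8, Chrng, Upk2, Rasal1, Tgm6, Pimreg and 4933433F19Rik. Only their mean is given here for the groups. Other called genes, such as Elovl2 and Mab21l3, were also lowest in Foxl2-null ovaries among the 4 groups, so that the 13 are not all such genes. All 13 had a called Foxl2 effect where Wnt4 was intact. As a mean over the 13 genes relative to wild-type P0 ovaries, on the log2 scale, they stood at 0.63 in double null ovaries and 0.59 in Wnt4-null ovaries, against -1.80 in Foxl2-null ovaries, with single wild-type arrays at -0.48 to 0.31. The same mean was -0.11 in E15 Wnt4-null ovaries against -1.17 in E15 control ovaries, whose labels name no Foxl2 mutation. Each E15 group had 2 arrays, and per the methods its mice were of another strain mix than the other groups. The mean was -0.85 in E13 control and -0.57 in E16 wild-type ovaries, and -0.31 in the Kit mutant ovaries of P0, which are Foxl2+/-. The part of this shared movement in the interaction was not tested, and 54 genes with a positive interaction remain without the 13. None of the 13 had a called interaction with the Kit mutant ovaries as the other setting.

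Kit mutant ovaries (KitWv/Wv) of P0 offered a second setting with Wnt4 intact, in which the control ovaries were Foxl2+/-, as the Wnt4-null ovaries were. The Foxl2 effect in Wnt4-null ovaries exceeded that in Kit mutant ovaries (Kit Foxl2 double mutant minus Kit mutant) for 52 genes (0.286%) and fell short of it for 32 (0.176%). This difference uses the same double null and Wnt4-null arrays as the interaction above, so that the values only stand side by side. It had the same sign for 88 of the 95 genes and was called with that sign for 31 of them, 19 positive and 12 negative. Serpina5 had 4.65 ± 0.73 (adjusted p = 0.000332, limma), Hes5 4.46 ± 0.95 (adjusted p = 0.0143, limma), Ptgds 3.27 ± 0.65 (adjusted p = 0.00627, limma), and Akr1c14 2.27 ± 0.32 (adjusted p = 8.25e-05, limma). On the negative side Nell1 had -3.64 ± 0.51 (adjusted p = 8.25e-05, limma), Apoa1 -2.82 ± 0.37 (adjusted p = 8.06e-05, limma), Stra6 -2.80 ± 0.48 (adjusted p = 0.00101, limma) and Ephx2 -2.54 ± 0.36 (adjusted p = 8.25e-05, limma). Pnmt, at 2.48 ± 0.63, missed the threshold (adjusted p = 0.064, limma), as did Sel1l3 (2.64 ± 0.69, adjusted p = 0.0759, limma) and Sox8 (1.93 ± 0.52, adjusted p = 0.0853, limma). Dhrs2 and Adamdec1 turned sign, at -0.053 and -1.39.

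In the Kit mutant setting the Foxl2 effect itself was -2.67 ± 0.38 for Slc26a7 (adjusted p = 6.91e-05, limma), -2.10 ± 0.23 for Akr1c14 (adjusted p = 4.16e-07, limma) and 2.37 ± 0.42 for Slc8a3 (adjusted p = 0.00139, limma). In Wnt4-null ovaries, whose arrays are independent of these, it was -0.78 ± 0.38, 0.17 ± 0.23 and 0.45 ± 0.42 for Slc26a7, Akr1c14 and Slc8a3, and none of them passed the threshold. With Wnt4 and Kit intact it was -3.40 ± 0.38, -1.34 ± 0.23 and 3.09 ± 0.42 for these genes, all called. The difference between the Wnt4-null and the Kit mutant settings was called for Akr1c14 and not for Slc26a7 (adjusted p = 0.124, limma) or Slc8a3 (adjusted p = 0.205, limma).

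The missing Foxl2 allele of the Wnt4-null group could be measured only at E16, where ovaries with 1 Foxl2 allele were compared with wild-type ovaries. Loss of 1 allele was called for 1 gene of all and for 0 of the 95 (limma; 10 at an unadjusted p under 0.05), and its median size in the 95 was 0.24 on the log2 scale. By gene set enrichment, the study reported testis-determining genes as a group to be higher in E16 heterozygous than in wild-type ovaries. It also reported lower somatic follicle markers in heterozygous ovaries at a later, postnatal age. A count of single genes does not measure such group shifts. With the E16 effect added to the interaction, all 95 genes kept their sign, and 19 genes of the whole array were called positive and 4 negative, 21 of them among the 95. Serpina5 (5.51, adjusted p = 0.00637, limma), Ptgds (4.77, adjusted p = 0.00637, limma), Pnmt (4.19, adjusted p = 0.0172, limma), Gstm7 (1.52, adjusted p = 0.0172, limma), Nell1 (-3.33, adjusted p = 0.0172, limma) and Apoa1 (-2.39, adjusted p = 0.0172, limma) were among these. The added arrays make the standard error larger, and the effect of 1 allele at P0 was not measured.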

How the data were processed

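RNA of whole gonads of single mice was extracted with the MELT system, amplified linearly with Pico Ovation, labelled with biotin and hybridised to Affymetrix MOE430 v.2 arrays. The authors summarised the scans with plier and rescaled every array to the same global mean, and deposited the resulting linear intensities. The submitters' processing notes also name GCOS 1.3, and the genome build is not given in the sources used here. Of 45071 deposited probe sets, 64 controls were left out, and no remaining value was missing or at or under 0. The array annotation gave 34927 probe sets a sole gene symbol, 930 more than 1 and 9150 none. RefSeq held the gene of 34723.

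Intensities were converted to log2 after a pseudocount of 1% of the common mean of the arrays. The brightest probe set on average stood for each of 18184 genes. Means of the 15 groups were fitted to the 43 arrays together in limma 3.58.1 (R 4.3.3; lmFit, contrasts and trended eBayes), with 28 residual degrees of freedom. Tests were two-sided, and Benjamini-Hochberg adjusted p-values over all genes were held to a threshold of 0.05. Errors in the text are standard errors of that fit, for log2 differences with 3 arrays a group, and the number of arrays limits the precision. The study used the program Focus and made no such contrast. The code was tested on simulated data. Figures were drawn with matplotlib 3.10.9.

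Named genes were Foxl2 and Wnt4, the 10 largest positive and 10 largest negative called interactions among genes brighter than the median probe set, called members of lists and a fixed panel. Not all of them are described, and the text says where a gene was singled out later. The members and lists were chosen with earlier results of these data known. Alternatives were other pseudocounts, a filter on dim genes, quantile normalization, array weights, the mean of a gene's probe sets, the 12 arrays alone, a replicate block, the E16 heterozygous effect, Kit mutants as the other setting and leaving out each array. Cyp19a1, Insl3 and Lhcgr were not analysed here.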

Additional observations from a re-analysis of the deposited data

Results flagged for a closer look

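The Foxl2 effect differed between the Wnt4-null and the Wnt4 intact setting by the test of the interaction itself (limma, adjusted p under 0.05) for 67 genes with a positive and 28 with a negative interaction. No explanation was weighed.

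Of the genes described above, the log2 interactions of those with a positive value were Serpina5 5.79, Hes5 5.21, Ptgds 4.50, Sel1l3 4.32, Dhrs2 3.69, Padi2 3.43, Cited1 3.28, Pnmt 3.23, Rnf152 2.96, Adamdec1 2.72, Col9a3 2.67, Slc26a7 2.62, Ptges 2.40, Sox8 2.16, Gstm7 1.82, Dkk3 1.82, Gsta4 1.53, Akr1c14 1.52, Pdgfa 1.42, Nrarp 1.41, Gstm1 1.29, Ptch1 1.12, Mgst1 0.94 and Smad3 0.94.

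Those with a negative value were Runx1 -1.94, Ephx2 -2.06, Apoa1 -2.16, Rgs10 -2.30, Prkg2 -2.43, Slc8a3 -2.64, D630039A03Rik -2.66, U90926 -2.80, Stra6 -2.80, Fam78b -2.81, H2-Q10 -3.26, Nell1 -3.32 and Rec8 -4.55.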

How the results depend on the processing

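The 67 positive and 28 negative interactions kept their sign under the alternatives that used the same groups, and the numbers called moved. The filter on dim genes tested only 81 of these 95. Array weights called 166 positive and 59 negative, quantile normalization 44 positive, and the E16 heterozygous effect added 19 positive and 4 negative. Leaving out each array in turn gave 36 to 87 positive and 11 to 39 negative. Positive calls were 38 and 44 without double null arrays 1 and 2, 38, 44 and 36 without Wnt4-null arrays 1, 2 and 3, and 37 without wild-type array 3, and negative calls were 11 without double null array 1, 17 without Wnt4-null array 1, 13 without Foxl2-null array 2 and 16 without wild-type array 2. Foxl2 loss in Wnt4-null ovaries called 201 genes in all, 434 with array weights and 83 to 217 leaving out each array, lowest without Wnt4-null array 2. Foxl2 loss with Wnt4 intact called 185, 396 with array weights and 105 to 240 leaving out each array, lowest without wild-type array 3. Wnt4 loss with Foxl2 present called 3397 and 2194 to 3468, lowest without wild-type array 2.

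With Kit mutants as the other setting, the interaction turned to -1.39 for Adamdec1, -0.12 for Nr5a2, -0.053 for Dhrs2, -0.31 for Dmrt1 and -0.49 for Foxl2, and on the linear scale that of Dhh turned to 1.46; the causes were not tested. Of the 37 called genes described, 17 stayed called under all 20 settings that used the same arrays or 1 fewer, and 14 with the E16 effect added. The calls held under the fewest of the 20 were those of Mgst1 and Fam78b (5 each), Dkk3 (6), Sox8 (7), Cited1 and Prkg2 (11 each) and U90926 (12). Same-numbered arrays had residual correlations of -0.155 to 0.145, and 5 of 12 correlated best with their own number. These values show no pairing of arrays by number, and so few arrays cannot exclude it. With the replicate block 57 positive and 23 negative interactions were called, 78 of them among the 95. The 12 arrays alone called 86, 53 of them among the 95. Of the 95, 81 had a group mean above the median probe set signal of 0.2561, and 3 had a group mean under the pseudocount.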
